A study of Mus musculus with 14 samples.

Results

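The genes described are 33 genes of the complement and coagulation systems, 19 of complement and 14 of coagulation, its inhibitors, plasminogen activation and thrombospondin, followed across 4 groups of mouse peritoneal macrophages. A gene was taken as a member where the RefSeq accession of an array probe mapped to its symbol, which held for 33 of 33 names, and all 33 were among the 20342 genes tested. The groups were given 5 µg of IL-4 with 25 µg of 11B11, an antibody against it, forming a complex that prolongs the action of IL-4, together with 2 ml of 4% thioglycollate medium (Thio+IL-4C, 4 arrays), the thioglycollate medium alone (Thio, 3 arrays), the IL-4 complex alone (IL-4C, 4 arrays) or the PBS vehicle (PBS, 3 arrays). All mice were C57BL/6, every agent was injected into the peritoneum, and all cells were sorted for both CD11b and F4/80. Thioglycollate is an irritant that draws blood monocytes into the cavity. Cells of the thioglycollate groups are called elicited here and those of the other groups resident, although the sort alone does not remove residents from an elicited sample. The labels give neither the time between injection and harvest nor the animals behind each array, so p-values cover the spread among the arrays at hand and no more.

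Complement is a cascade of plasma proteases that marks surfaces with fragments of C3, opened by C1q on bound antibody or by the alternative pathway and ended by a pore in the membrane. Coagulation is a parallel cascade in which tissue factor with factor VII activates factor X, leading to thrombin and to fibrin that factor XIII cross-links. The liver makes most of these proteins, but macrophages are a main source of C1q and make C3, properdin, tissue factor and the A subunit of factor XIII within tissues.

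Levels are on the log2 scale and set against the array they come from, 0 being the 75th percentile of its processed signal, and levels of different genes cannot be set against each other. Differences are log2 differences of group means with the standard error (±) of the limma fit, and a gene was called at an adjusted p under 0.05 over all genes tested. In bulk samples fewer cells of a type and less RNA per cell cannot be told apart. The 75th percentile was 2036 to 2537 on the Thio+IL-4C arrays, 2286 to 3571 on the Thio arrays, 3051 to 3866 on the IL-4C arrays and 1271 to 1811 on the PBS arrays, without overlap between IL-4C and PBS, between Thio and PBS or between Thio+IL-4C and IL-4C. Brightness thus moved with treatment in those comparisons, and its part in them was not tested. The arrays lay on 2 slides. Slide 1 held all IL-4C and PBS arrays and Thio 1, and slide 2 held all Thio+IL-4C arrays with Thio 2 and Thio 3. Thio 1 correlated across genes with Thio 2 and 3 at r of 0.849 to 0.866 and with the PBS arrays, which share its slide, at 0.918 to 0.931, against 0.957 to 0.988 for the other pairs of arrays within a group. Counts of members called for thioglycollate are therefore also given with slide as a block, which for Thio versus PBS leaves Thio 1 against the PBS arrays, and single values are given so where the block ended the call of a member.

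The sequence upstream of a gene holds sites for the factors that drive it, and 26 such windows, 250 bases ending at a listed start of transcription, were listed by RefSeq (GRCm38.p6) for 23 of the 33 genes. Windows are shown for C1qb and C1qc, neighbours on chromosome 4 that were called lower in the same comparisons, C1qb by less. They are also shown for C3 and F13a1, which had the largest rise and the largest fall with IL-4C, and for Tfpi. The letters GAGGAAGT, a motif of the macrophage factor PU.1, and TTC with GAA 4 bases further on, a motif of STAT6, the factor that the IL-4 receptor activates, were searched on both strands. Capitals mark a match. The windows, all on the minus strand and written 5′ to 3′ in the direction of the gene, are chr4:136886201-136886450 for C1qb, chr4:136892915-136893164 for C1qc, chr17:57228137-57228386 for C3, chr13:37050245-37050494 for F13a1 and chr2:84476760-84477009 for Tfpi.
C1qb: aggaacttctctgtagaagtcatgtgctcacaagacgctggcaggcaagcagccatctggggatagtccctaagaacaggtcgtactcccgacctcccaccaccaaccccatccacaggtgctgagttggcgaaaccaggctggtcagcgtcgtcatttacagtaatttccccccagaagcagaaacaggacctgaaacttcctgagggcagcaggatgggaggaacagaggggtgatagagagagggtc
C1qc: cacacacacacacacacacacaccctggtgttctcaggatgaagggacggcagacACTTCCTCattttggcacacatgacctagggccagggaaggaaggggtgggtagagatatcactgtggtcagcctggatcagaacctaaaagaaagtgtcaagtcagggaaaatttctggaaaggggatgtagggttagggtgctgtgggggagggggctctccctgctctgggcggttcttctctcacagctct
C3: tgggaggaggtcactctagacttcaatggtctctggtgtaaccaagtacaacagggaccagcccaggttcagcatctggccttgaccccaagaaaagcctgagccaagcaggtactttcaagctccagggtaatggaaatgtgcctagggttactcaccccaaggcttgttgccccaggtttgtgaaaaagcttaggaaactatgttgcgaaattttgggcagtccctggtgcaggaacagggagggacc
F13a1: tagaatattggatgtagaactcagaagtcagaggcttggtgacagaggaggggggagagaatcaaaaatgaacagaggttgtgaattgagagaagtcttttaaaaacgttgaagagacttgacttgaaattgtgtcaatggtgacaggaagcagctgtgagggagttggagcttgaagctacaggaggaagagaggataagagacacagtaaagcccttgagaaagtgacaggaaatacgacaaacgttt
Tfpi: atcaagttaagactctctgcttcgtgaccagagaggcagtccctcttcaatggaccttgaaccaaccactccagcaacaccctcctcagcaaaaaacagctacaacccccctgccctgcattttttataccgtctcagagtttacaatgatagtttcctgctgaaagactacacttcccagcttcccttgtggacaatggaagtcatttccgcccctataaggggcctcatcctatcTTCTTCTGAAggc
The PU.1 letters were found in 1 of the 26 windows, against 2.44% of all 32851 windows of that length. It was that of C1qc, 187 bases before the window's end and on the opposite strand. The STAT6 letters were found in 2 of the 26, against 5.85% of all windows. These were a window of Tfpi, 3 bases before its end, and that of Pros1. The listed Tfpi gene begins at base 84476775, within this window, so its match lies inside the listed gene. F13a1 and Tfpi each have a second listed window, in which neither motif was found. A match is only a run of letters, and its absence from the windows of C1qb, C3 and F13a1 says only that those letters are not there.

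IL-4C lowered more of these genes than it raised, in resident and in elicited cells. In IL-4C versus PBS, 15 of 33 members were called, 2 higher and 13 lower, against 32.3% of all genes called, 16.9% higher and 15.4% lower. Arrays of the groups did not overlap for 20 members, against 52.8% of all genes. Here and below, that share of all genes counts any gene with a value missing on an array as overlapping. Members, such as C1qb, were judged on the arrays they had, so the share of all genes is somewhat low beside theirs. The median member difference was -0.44, against -0.01 over all genes. In Thio+IL-4C versus Thio, 18 were called, 4 higher and 14 lower, against 39.5% of all genes, 16.4% higher and 23.1% lower, with a median of -0.43 against 0.04. Arrays did not overlap for 17 members, against 44.2% of all genes. Between these comparisons, which share no array, 7 members fell in both (C1qa, C1qb, C1qc, C3ar1, Cr1l, F3 and F13a1), 2 rose in both (C3 and F10), and 2 rose in elicited cells and fell in resident cells (Cfp and F5). Of these, F10 was lower in both by its other probe (-1.12 for Thio+IL-4C minus Thio and -1.60 for IL-4C minus PBS), and Cr1l stood at 0.0024 for IL-4C minus PBS in the authors' deposited table and was not called there in 11 of the 14 fits without 1 array. The fall of Cfp in resident cells did not pass with quantile normalization (-0.10, adjusted p = 0.524). C1qb in Thio+IL-4C versus Thio was not called in 12 of the 14 fits without 1 array. Without Thio 1 the count in Thio+IL-4C versus Thio was 16, C1qb and F3 no longer passing. The IL-4C effect itself differed between elicited and resident cells for 15 members, 9 with a higher and 6 with a lower value in elicited cells, against 32.6% of all genes, 12.8% higher and 19.8% lower. The balance of directions depended on the scaling, with 7 members higher and 9 lower under quantile normalization and 8 higher and 10 lower in the authors' deposited table, while over all genes normexp background correction gave 4102 higher and 4032 lower.

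**Figure D1:**
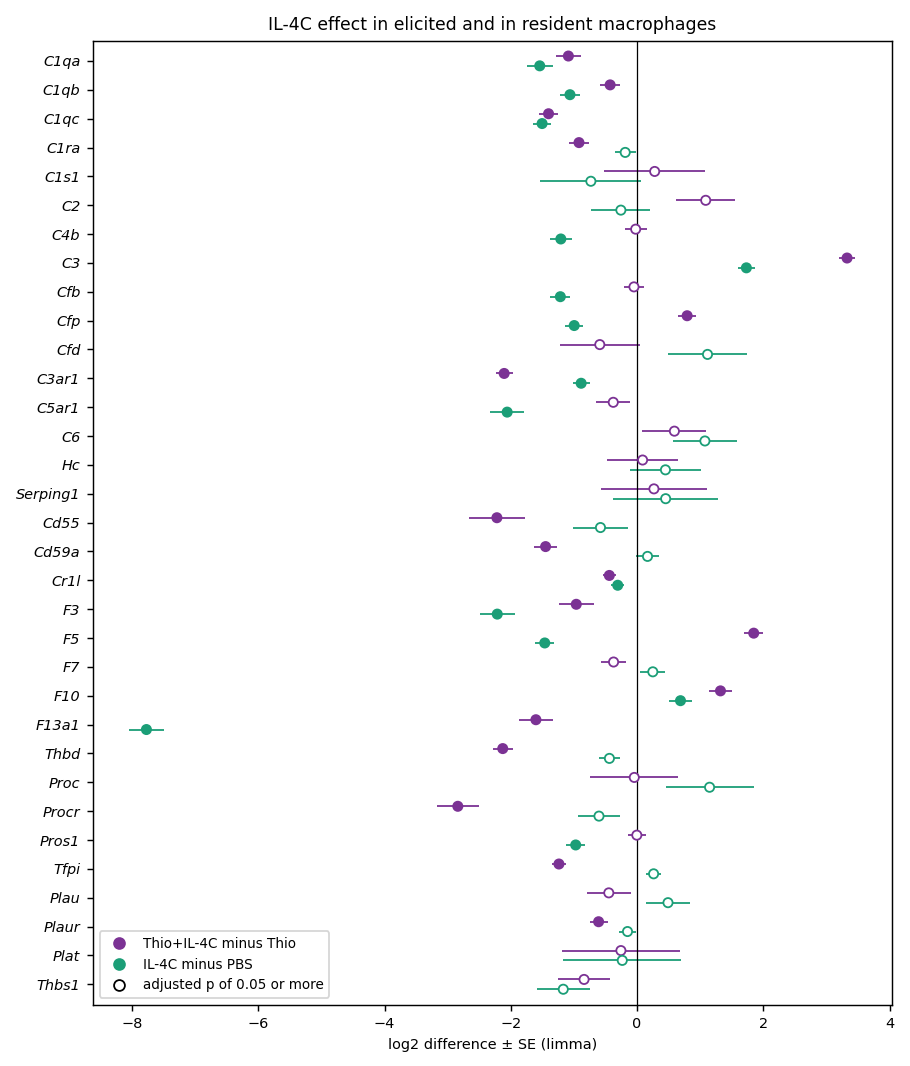
Log2 difference ± SE of each of the 33 genes for Thio+IL-4C minus Thio (purple) and IL-4C minus PBS (green), with open points where the adjusted p was 0.05 or more. C3 and F10 lie right of 0 in both comparisons, F10 by its brightest probe only. The 3 C1q genes lie left of 0 in both, and F13a1 in resident cells lies farthest left at -7.78.

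Thioglycollate without IL-4C changed 23 of the 33, 7 higher and 16 lower, against 44.5% of all genes called in Thio versus PBS, 20.2% higher and 24.3% lower. The median member difference was -0.78, against -0.09 over all genes, and arrays did not overlap for 25 members, against 42.1% of all genes. With slide as a block 20 members were called, all of the 23 except C6, F13a1 and Thbd, while the calls over all genes fell to 6039 of 20342, against 9062 without the block. Without Thio 1 the counts were 26 members and 13890 genes. Thio+IL-4C differed from IL-4C in 29 members, 10 higher and 19 lower, against 70% of all genes, 27.9% higher and 42.1% lower, and arrays did not overlap for 27 members, against 72%. Treatment and slide coincide there except through Thio 1, and with slide as a block 20 members and 5459 genes were called, against 14249 genes without it.

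**Figure D2:**
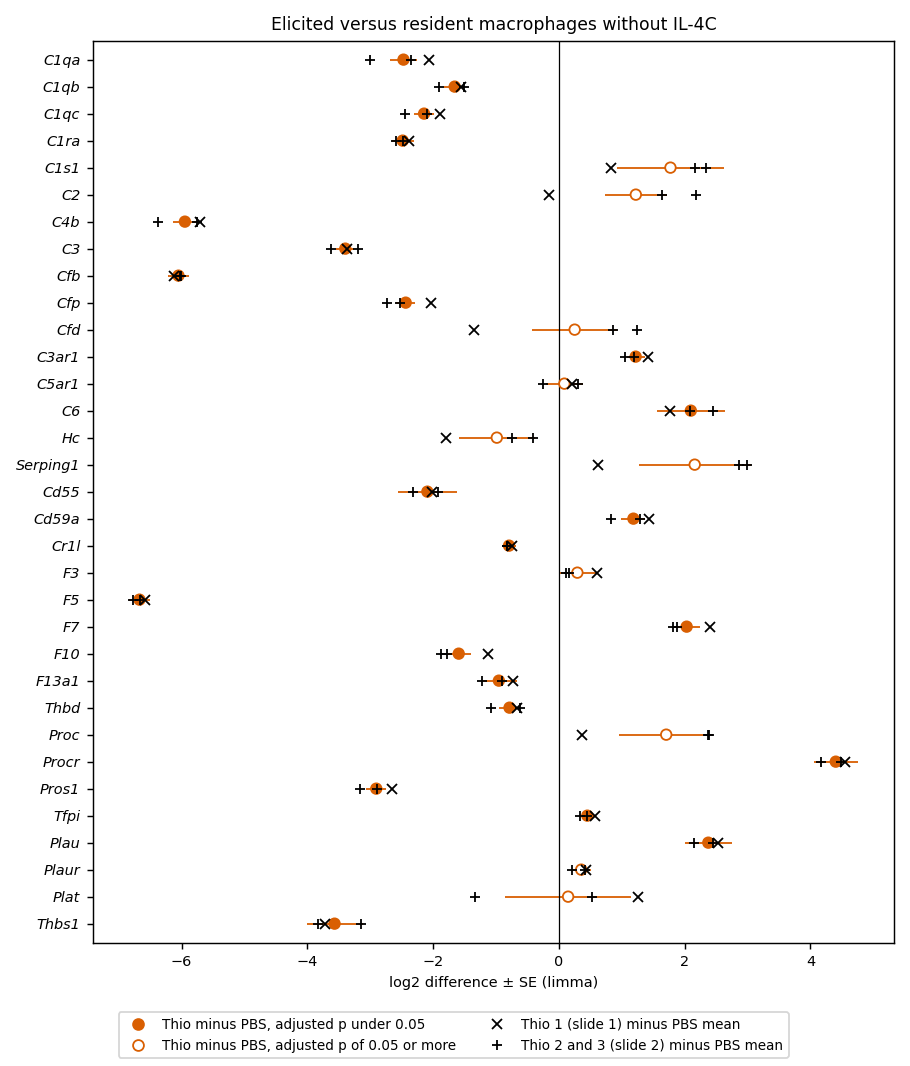
Log2 difference ± SE of each of the 33 genes for Thio minus PBS (orange, open where the adjusted p was 0.05 or more), with each Thio array minus the PBS mean: a cross for Thio 1 on slide 1 and plus signs for Thio 2 and 3 on slide 2. For F5, Cfb, C4b, C3 and Procr the 3 arrays lie close together and far from 0, and for C2, Serping1 and Proc Thio 1 lies to the left of the other two.

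The sorted cells carried their labelled markers. Itgam, which encodes CD11b, Adgre1, which encodes F4/80, Csf1r and Mertk were well above background on all 14 arrays, while Fcgr1 was so on 3 of the 4 IL-4C arrays and on every other array, and Cd68 had no named probe. The 5 macrophage markers summed to 106 to 116 times the 75th percentile signal in Thio+IL-4C, 126 to 167 in Thio, 232 to 241 in IL-4C and 352 to 409 in PBS, so this sum moved with both treatments. The 8 B cell markers summed to 2.87 to 3.21 in Thio+IL-4C, 2.39 to 3.72 in Thio, 1.43 to 1.88 in IL-4C and 6.23 to 14.4 in PBS. The 12 mesothelial and stromal markers summed to 2.55 to 2.75 in Thio+IL-4C, 3.22 to 5.14 in Thio, 1.18 to 1.31 in IL-4C and 1.81 to 2.01 in PBS. Of those 12, 7 rose and none fell in Thio versus PBS. Wt1, a mesothelial marker, was well above background on all 3 Thio arrays, at -3.91 to -2.70. It was so on no Thio+IL-4C, IL-4C or PBS array, where it stood at -8.28 to -6.70. Msln, Upk3b, Upk1b, Lrrn4, Krt19 and Krt8 of the same list were well above background on all 4 Thio+IL-4C arrays. Lrrn4 and Krt19 were so on every IL-4C and PBS array too. The 8 platelet markers summed to 2.41 to 3.33 in Thio+IL-4C, 1.12 to 2.18 in Thio, 1.23 to 1.37 in IL-4C and 0.644 to 0.989 in PBS. The 7 neutrophil markers with a probe summed to 11.8 to 17.9 in Thio+IL-4C, 7.99 to 16.2 in Thio, 2.82 to 3.10 in IL-4C and 3.75 to 4.50 in PBS. Elane, at 2.21 to 3.52 in Thio, was the largest part of the sum there. Of these 7 markers, 3 rose and 1 fell in Thio versus PBS. The 6 mast cell markers summed to 1.48 to 1.98 in Thio+IL-4C, 1.91 to 4.43 in Thio, 3.16 to 3.53 in IL-4C and 6.24 to 7.65 in PBS. The 5 dendritic cell markers with a probe summed to 3.20 to 4.85 in Thio+IL-4C, 0.798 to 2.47 in Thio, 5.49 to 6.42 in IL-4C and 2.26 to 3.51 in PBS. Cd209a alone, at 2.11 to 2.56 in IL-4C, made up most of the sum there. Flt3 was lower in IL-4C, at -4.43 to -2.96, than in PBS, at -2.94 to -2.07. Of these 5 markers, 1 rose and none fell in IL-4C versus PBS. The 8 T and NK cell markers summed to 6.88 to 10.2 in Thio+IL-4C, 6.49 to 6.97 in Thio, 5.39 to 5.95 in IL-4C and 8.50 to 10.1 in PBS, and 4 of them fell and none rose in IL-4C versus PBS. The 6 eosinophil markers summed to 2.22 to 3.67 in Thio+IL-4C, 1.52 to 2.62 in Thio, 2.06 to 2.31 in IL-4C and 2.18 to 2.46 in PBS. Of these 6 markers, 2 rose and 3 fell in Thio versus PBS. The 6 hepatocyte markers summed to 2.43 to 3.25 in Thio+IL-4C, 1.59 to 2.35 in Thio, 0.788 to 1.89 in IL-4C and 0.565 to 2.07 in PBS. Serpina1a alone, at 1.01 to 1.53 in Thio+IL-4C, made up most of the sum there. Ahsg was lower in Thio+IL-4C, at -4.19 to -3.01, than in PBS, at -2.35 to -2.13. Of the 5 hepatocyte markers tested, none rose and 1 fell in Thio+IL-4C versus Thio. Serpina1a, Fgb and Ahsg were well above background on all 14 arrays, Alb on 12 and Ttr on none. The part of other cells in the results on the 33 genes was not tested.

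Of the 5 genes of the C1 complex, which starts the classical pathway, 4 fell in Thio+IL-4C versus Thio, 3 in IL-4C versus PBS and 4 in Thio versus PBS, and none rose. C1qa, C1qb and C1qc encode the chains of C1q, and their levels were highest in PBS. C1qa had levels of 3.84, 3.17, 3.55 and 3.45 in Thio+IL-4C, 5.01, 4.06 and 4.71 in Thio, 5.45, 5.48, 5.63 and 5.52 in IL-4C, and 7.04, 7.05 and 7.10 in PBS. The groups did not overlap and ran downward in the order PBS, IL-4C, Thio, Thio+IL-4C. C1qa fell with IL-4C in elicited cells, at -1.09 ± 0.20 (2.13-fold lower, adjusted p = 0.00109) for Thio+IL-4C minus Thio, and in resident cells, at -1.54 ± 0.20 (2.91-fold lower, adjusted p = 9.64e-05) for IL-4C minus PBS. It also fell with thioglycollate, at -2.47 ± 0.22 (5.54-fold lower, adjusted p = 3.56e-06) for Thio minus PBS. C1qc had levels of 4.28, 3.83, 3.89 and 3.87 in Thio+IL-4C, 5.62, 5.07 and 5.42 in Thio, 6.02, 5.93, 6.07 and 6.01 in IL-4C, and 7.42, 7.52 and 7.60 in PBS, in the same order and again without overlap. Its differences were -1.40 ± 0.14 (2.65-fold lower, adjusted p = 1.07e-05) for Thio+IL-4C minus Thio, -1.51 ± 0.14 (2.84-fold lower, adjusted p = 7.62e-06) for IL-4C minus PBS and -2.14 ± 0.15 (4.42-fold lower, adjusted p = 6.33e-07) for Thio minus PBS. With quantile normalization the last of these was -1.29.

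C1qb had levels of 4.79, 4.21, 4.62 and 4.29 in Thio+IL-4C, 5.01, 4.65 and 5.06 in Thio, 5.49, 5.46 and 5.54 in IL-4C, and 6.49, 6.57 and 6.63 in PBS, the IL-4C 4 spot having been left out by its outlier mark, so that the fit used 3 IL-4C arrays. Its Thio+IL-4C and Thio arrays interleaved, with the highest Thio+IL-4C array at 4.79 and the lowest Thio array at 4.65, whereas the other groups did not overlap. The difference was -0.43 ± 0.15 (adjusted p = 0.0475) for Thio+IL-4C minus Thio, -1.06 ± 0.16 (2.09-fold lower, adjusted p = 0.000442) for IL-4C minus PBS and -1.66 ± 0.16 (3.15-fold lower, adjusted p = 1.68e-05) for Thio minus PBS. The first of these did not pass the test with slide as a block (-0.38, adjusted p = 0.108), nor in 12 of the 14 fits without 1 array, the exceptions being those without Thio 2 or Thio+IL-4C 1. The IL-4C effect on the 3 C1q genes was not called as different between elicited and resident cells, with differences of effects of 0.45 (adjusted p = 0.25) for C1qa, 0.64 (adjusted p = 0.0516) for C1qb and 0.10 (adjusted p = 0.718) for C1qc.

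The proteases of the C1 complex did not follow a single pattern. C1ra, which encodes the C1r protease, had levels of -1.77, -2.07, -1.41 and -1.74 in Thio+IL-4C, -0.73, -0.94 and -0.82 in Thio, 1.48, 1.44, 1.48 and 1.46 in IL-4C, and 1.33, 1.65 and 1.98 in PBS. Every elicited array lay below every resident array, and IL-4C and PBS arrays overlapped. C1ra fell, at -2.48 ± 0.18 (5.59-fold lower, adjusted p = 5.96e-07) for Thio minus PBS and at -0.92 ± 0.17 (1.89-fold lower, adjusted p = 0.000817) for Thio+IL-4C minus Thio, against -0.19 ± 0.17 (adjusted p = 0.473) for IL-4C minus PBS. The difference between the IL-4C effects was -0.73 ± 0.23 (adjusted p = 0.0315), which did not pass when the probes of the gene were averaged (-0.49, adjusted p = 0.122) or in 9 of the 14 fits without 1 array, with adjusted p up to 0.0813. C1s1, which encodes the C1s protease, was called only for Thio+IL-4C minus IL-4C, at 2.79 ± 0.74 (adjusted p = 0.00554), and with slide as a block this was 1.37 (adjusted p = 0.554). Its 4 Thio+IL-4C arrays stood at -2.18 to -1.83, against -6.12 to -2.79 for the IL-4C arrays, and Thio 1 at -3.23 lay below Thio 2 and 3 at -1.90 and -1.73.

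C4b and C2 encode the proteins that C1s cleaves to build the classical C3 convertase, and C4b had the third largest fall of the 33 genes in Thio versus PBS. C4b had levels of 1.96, 1.72, 1.87 and 2.10 in Thio+IL-4C, 2.17, 1.51 and 2.12 in Thio, 6.72, 6.72, 6.49 and 6.75 in IL-4C, and 7.82, 7.68 and 8.14 in PBS. All elicited arrays lay far below all resident arrays, and the elicited groups overlapped. The difference was -5.95 ± 0.19 (61.6-fold lower, adjusted p = 1.07e-09) for Thio minus PBS and -4.76 ± 0.16 (27.1-fold lower, adjusted p = 1.48e-09) for Thio+IL-4C minus IL-4C. IL-4C lowered C4b in resident cells, at -1.21 ± 0.17 (2.31-fold lower, adjusted p = 0.000181) for IL-4C minus PBS, a value that was -0.57 with quantile normalization, while Thio+IL-4C minus Thio was -0.02 ± 0.17 (adjusted p = 0.922). The difference of IL-4C effects was 1.19 ± 0.24 (adjusted p = 0.00295), which did not pass with quantile normalization (0.60, adjusted p = 0.0678). C2 was called only for Thio+IL-4C minus IL-4C, at 2.57 ± 0.43 (adjusted p = 0.0003). Its levels were 1.05, 0.83, 1.05 and 0.73 in Thio+IL-4C, -1.55, 0.79 and 0.24 in Thio, -1.57, -1.86, -1.31 and -1.89 in IL-4C, and -0.92, -2.16 and -1.12 in PBS, with Thio 1 at the level of the resident arrays and Thio 2 and 3 above them all, and with slide as a block the difference was 0.51 (adjusted p = 0.53).

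C3, the protein at which all complement pathways meet, rose with IL-4C in both kinds of macrophage and fell with thioglycollate. C3 had levels of 4.99, 5.27, 5.36 and 5.15 in Thio+IL-4C, 1.89, 1.64 and 2.07 in Thio, 7.06, 6.88, 6.97 and 7.06 in IL-4C, and 5.10, 5.24 and 5.44 in PBS. Thio arrays were the lowest and IL-4C arrays the highest, while Thio+IL-4C arrays overlapped with PBS arrays. The rise with IL-4C was 3.33 ± 0.13 (10-fold higher, adjusted p = 8.48e-09) for Thio+IL-4C minus Thio and 1.73 ± 0.13 (3.32-fold higher, adjusted p = 1.32e-06) for IL-4C minus PBS. The rise was larger in elicited cells, with a difference of effects of 1.60 ± 0.19 (3.02-fold higher, adjusted p = 6.09e-05). Thio minus PBS was -3.40 ± 0.14 (10.5-fold lower, adjusted p = 8.52e-09), and Thio+IL-4C minus IL-4C was -1.80 ± 0.12 (3.48-fold lower, adjusted p = 2.97e-07).

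The alternative pathway genes Cfb and Cfp behaved differently from C3. Cfb, which encodes factor B, the protease of the alternative convertase, had levels of -1.08, -0.82, -0.71 and -0.69 in Thio+IL-4C, -0.84, -0.74 and -0.74 in Thio, 3.93, 3.90, 4.24 and 4.16 in IL-4C, and 5.14, 5.03 and 5.66 in PBS. The elicited arrays of both groups lay together and more than 4 log2 units below every resident array. Cfb fell, at -6.05 ± 0.17 (66.2-fold lower, adjusted p = 5.49e-10) for Thio minus PBS and at -4.88 ± 0.15 (29.5-fold lower, adjusted p = 6.3e-10) for Thio+IL-4C minus IL-4C. IL-4C lowered it in resident cells, at -1.22 ± 0.16 (2.32-fold lower, adjusted p = 9.48e-05), against -0.05 ± 0.16 (adjusted p = 0.81) in elicited cells, and the difference of effects was 1.17 ± 0.23 (adjusted p = 0.00198).

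Cfp encodes properdin, which stabilises the alternative convertase, and it was one of 2 members that IL-4C changed in opposite directions. Its levels were 6.75, 6.50, 6.62 and 6.66 in Thio+IL-4C, 6.24, 5.74 and 5.54 in Thio, 7.30, 7.19, 7.29 and 7.33 in IL-4C, and 8.18, 8.28 and 8.36 in PBS. None of the 4 groups overlapped, and Thio arrays were the lowest. IL-4C raised Cfp in elicited cells, at 0.79 ± 0.14 (1.73-fold higher, adjusted p = 0.000927) for Thio+IL-4C minus Thio, and lowered it in resident cells, at -0.997 ± 0.14 (2-fold lower, adjusted p = 0.000201) for IL-4C minus PBS. The difference of effects was 1.79 ± 0.20 (3.46-fold higher, adjusted p = 5.25e-05). With quantile normalization the fall in resident cells did not pass (-0.10, adjusted p = 0.524), and the difference of effects was 0.66. Thio minus PBS was -2.44 ± 0.15 (5.41-fold lower, adjusted p = 2.29e-07), or -1.41 with quantile normalization, and Thio+IL-4C minus IL-4C was -0.65 ± 0.13 (adjusted p = 0.00119), which did not pass with slide as a block (-0.05, adjusted p = 0.869). Cfd, which encodes factor D, was dim, being well above background on 2 of 3 Thio arrays and 2 of 3 PBS arrays, and was called only for Thio+IL-4C minus IL-4C, at -1.46 ± 0.59 (adjusted p = 0.0429). That call was lost in 8 of the 14 fits without 1 array, with adjusted p up to 0.109, and its size ran from -0.62 with normexp background correction to -3.86 with slide as a block.

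**Figure D3:**
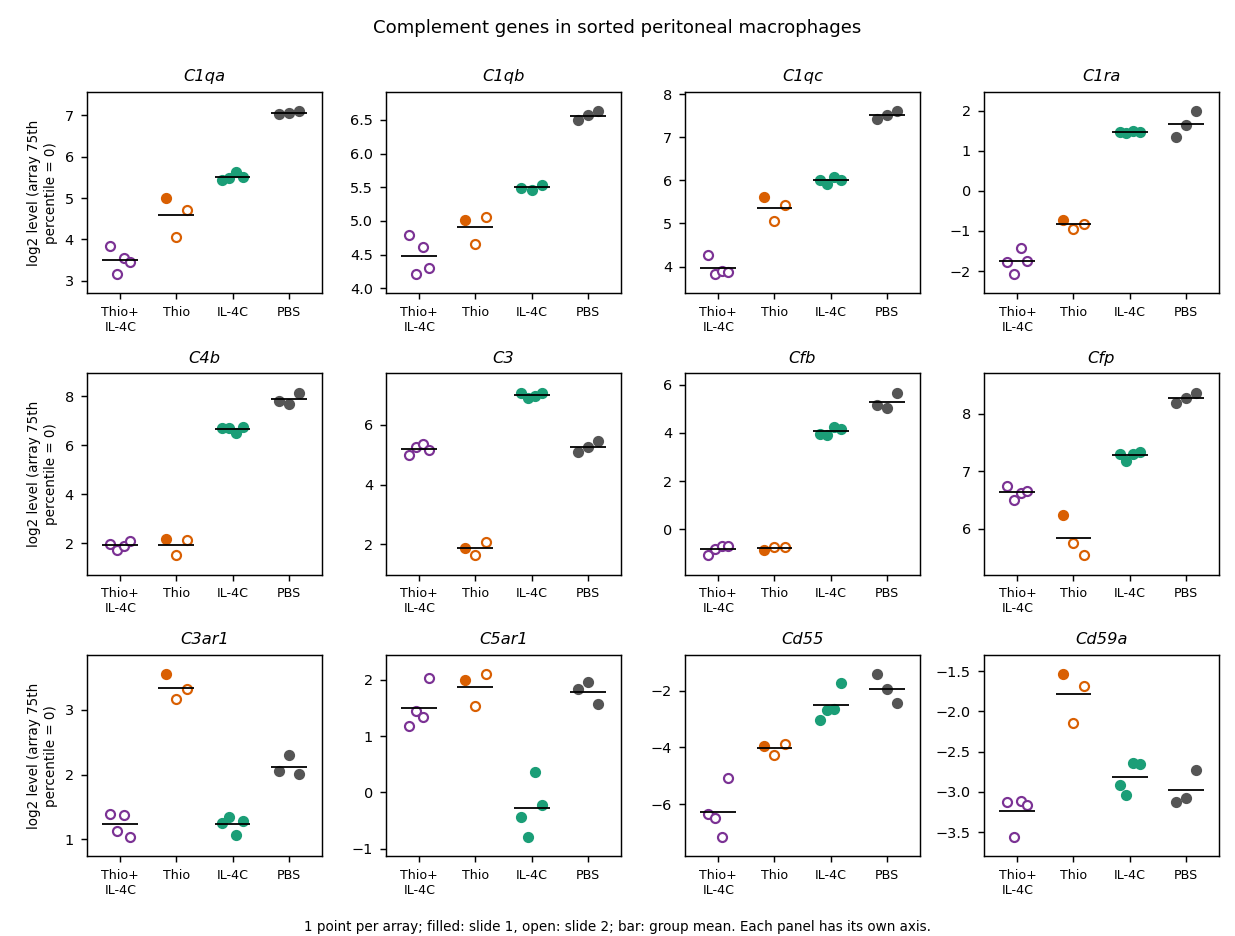
Log2 levels of 12 complement genes, 1 point per array, filled for slide 1 and open for slide 2, with a bar at each group mean and a separate axis per gene. C4b and Cfb show elicited arrays (left) far below resident arrays (right), C3 shows the IL-4C rise in both, and C1qa and C1qc step down from PBS to Thio+IL-4C.

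The receptors for the anaphylatoxins C3a and C5a, which guide and activate leukocytes, both fell with IL-4C in resident cells. C3ar1, the C3a receptor gene, had levels of 1.40, 1.13, 1.38 and 1.04 in Thio+IL-4C, 3.54, 3.17 and 3.32 in Thio, 1.25, 1.35, 1.07 and 1.28 in IL-4C, and 2.05, 2.30 and 2.01 in PBS. Thio arrays were the highest, PBS arrays next, and the Thio+IL-4C and IL-4C arrays overlapped at the bottom. The fall was -2.11 ± 0.13 (4.31-fold lower, adjusted p = 2.67e-07) for Thio+IL-4C minus Thio and -0.89 ± 0.13 (1.85-fold lower, adjusted p = 0.000253) for IL-4C minus PBS, with a difference of effects of -1.22 ± 0.19 (adjusted p = 0.00042). C3ar1 rose, at 1.22 ± 0.14 (2.33-fold higher, adjusted p = 3.43e-05) for Thio minus PBS, and Thio+IL-4C minus IL-4C was 0.001 ± 0.12 (adjusted p = 0.995). C5ar1, the C5a receptor gene, had levels of 1.18, 1.44, 1.34 and 2.03 in Thio+IL-4C, 1.998, 1.53 and 2.10 in Thio, -0.43, -0.79, 0.36 and -0.23 in IL-4C, and 1.83, 1.96 and 1.57 in PBS. The IL-4C arrays lay below all others, and the other groups overlapped. C5ar1 fell, at -2.06 ± 0.27 (4.17-fold lower, adjusted p = 9.64e-05) for IL-4C minus PBS, against -0.38 ± 0.27 (adjusted p = 0.279) for Thio+IL-4C minus Thio, and the difference of effects was 1.68 ± 0.38 (adjusted p = 0.00548). Thio+IL-4C minus IL-4C was 1.77 ± 0.25 (3.41-fold higher, adjusted p = 9.59e-05).

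Of the terminal pathway, C6 and Hc, the mouse gene of C5, were measured, and neither was called for IL-4C in either kind of cell. C6 had levels of -1.78, -2.07, -1.66 and -2.10 in Thio+IL-4C, -2.83, -2.15 and -2.50 in Thio, -4.31, -1.82, -3.56 and -4.39 in IL-4C, and -4.18, -5.000 and -4.60 in PBS, with the PBS arrays among the lowest and the IL-4C arrays spread over more than 2 log2 units. It was higher, at 2.10 ± 0.54 (adjusted p = 0.0095) for Thio minus PBS, which did not pass with slide as a block (1.76, adjusted p = 0.126). Thio+IL-4C minus IL-4C was 1.61 ± 0.47 (adjusted p = 0.00921) with overlapping arrays, and with slide as a block 1.11 (adjusted p = 0.454). Hc was called only for Thio+IL-4C minus IL-4C, at -1.35 ± 0.52 (adjusted p = 0.0369), and not with slide as a block (-2.56, adjusted p = 0.0856) or in 7 of the 14 fits without 1 array.

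Among the complement inhibitors, 3 of 4 fell with IL-4C in elicited cells by their brightest probes. Cd55 encodes decay-accelerating factor, which takes convertases apart on the cell's own surface, and its levels were -6.34, -6.46, -7.14 and -5.08 in Thio+IL-4C, -3.96, -4.27 and -3.87 in Thio, -3.02, -2.69, -2.66 and -1.73 in IL-4C, and -1.43, -1.96 and -2.44 in PBS. It ran lowest in Thio+IL-4C, where 2 of 4 arrays were well above background, then in Thio, and the IL-4C and PBS arrays overlapped. Its difference was -2.22 ± 0.44 (4.66-fold lower, adjusted p = 0.00166) for Thio+IL-4C minus Thio, against -0.58 ± 0.44 (adjusted p = 0.393) for IL-4C minus PBS, with effects that were not called as different at -1.64 ± 0.62 (adjusted p = 0.0644). In the authors' deposited table the first of these was -0.56 (adjusted p = 0.111), and with normexp background correction it was -0.78. Thio minus PBS was -2.09 ± 0.47 (4.26-fold lower, adjusted p = 0.00429).

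Cd59a, whose product blocks the terminal pore, had levels of -3.12, -3.56, -3.11 and -3.17 in Thio+IL-4C, -1.54, -2.14 and -1.68 in Thio, -2.91, -3.03, -2.63 and -2.66 in IL-4C, and -3.13, -3.07 and -2.72 in PBS. The Thio arrays lay above all others. Cd59a rose, at 1.19 ± 0.19 (2.27-fold higher, adjusted p = 0.000462) for Thio minus PBS and fell, at -1.45 ± 0.18 (2.73-fold lower, adjusted p = 4.95e-05) for Thio+IL-4C minus Thio, against 0.17 ± 0.18 (adjusted p = 0.583) for IL-4C minus PBS. The difference of IL-4C effects was -1.62 ± 0.25 (adjusted p = 0.000485). Thio+IL-4C minus IL-4C was -0.43 ± 0.17 (adjusted p = 0.0366), which did not pass with slide as a block (-0.06, adjusted p = 0.918) or without any one of IL-4C 3, IL-4C 4, Thio+IL-4C 2 or Thio+IL-4C 4.

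Cr1l encodes Crry, the rodent inhibitor of C3 convertases, and its changes were small. Its levels were 2.82, 2.82, 2.80 and 2.77 in Thio+IL-4C, 3.30, 3.22 and 3.22 in Thio, 3.84, 3.63, 3.64 and 3.81 in IL-4C, and 3.84, 4.25 and 4.01 in PBS. The elicited groups lay below the resident ones without overlap, and IL-4C 1 and PBS 1 were equal at 2 decimals. The differences were -0.44 ± 0.11 (adjusted p = 0.00576) for Thio+IL-4C minus Thio and -0.79 ± 0.11 (adjusted p = 0.000174) for Thio minus PBS. IL-4C minus PBS was -0.31 ± 0.11 (adjusted p = 0.0439), which was 0.0024 in the authors' deposited table (adjusted p = 0.991) and did not pass in 11 of the 14 fits without 1 array, the exceptions being those without PBS 1, IL-4C 1 or Thio 1. Without PBS 2 it was -0.20. Serping1, the C1 inhibitor gene, was called only for Thio+IL-4C minus IL-4C, at 1.97 ± 0.77 (adjusted p = 0.038), with overlapping arrays. Its other probe gave -2.52, and with slide as a block the difference was -0.33 (adjusted p = 0.896). For Thio+IL-4C minus Thio the brightest probe of Serping1 gave 0.27 and the other -2.74, so the direction depends on the probe. That other probe was well above background on every Thio, IL-4C and PBS array and on no Thio+IL-4C array.

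By their brightest probes, 2 of the 5 coagulation factors rose and 2 fell in Thio+IL-4C versus Thio. Counts were 1 higher and 3 lower in IL-4C versus PBS, and 1 higher and 3 lower in Thio versus PBS. F10 is counted as higher in both IL-4C comparisons, but its other probe was lower in both (-1.12 in elicited and -1.60 in resident cells). F13a1, which encodes the A subunit of factor XIII and is strongly expressed by resident macrophages, had levels of 1.74, 2.44, 2.01 and 2.16 in Thio+IL-4C, 3.91, 3.43 and 3.74 in Thio, -3.45, -2.96, -3.39 and -2.72 in IL-4C, and 4.83, 5.09 and 4.02 in PBS. The 4 IL-4C arrays lay more than 4 log2 units below every other array, and the Thio+IL-4C arrays lay below the Thio and PBS arrays. F13a1 fell, at -7.78 ± 0.27 (219-fold lower, adjusted p = 4.42e-09) for IL-4C minus PBS and at -1.60 ± 0.27 (3.04-fold lower, adjusted p = 0.000552) for Thio+IL-4C minus Thio. The fall was smaller in elicited cells, with a difference of effects of 6.17 ± 0.39 (adjusted p = 8.61e-07), and Thio+IL-4C minus IL-4C was 5.22 ± 0.25 (37.2-fold higher, adjusted p = 2.34e-08). Its second probe gave -4.18 for IL-4C minus PBS, -0.85 for Thio+IL-4C minus Thio 3.33 for the difference of effects and 1.55 for Thio+IL-4C minus IL-4C, the same directions at smaller size, and for Thio+IL-4C minus IL-4C the mean of both probes was 3.39. For Thio minus PBS the difference was -0.95 ± 0.29 (adjusted p = 0.0212), which did not pass with slide as a block (-0.73, adjusted p = 0.228) or without any one of PBS 1, PBS 2, Thio 2 or Thio 3, and the second probe gave -1.78.

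F5, the cofactor of factor X, was the other member that IL-4C changed in opposite directions. F5 had levels of 0.68, 0.18, 0.49 and 0.89 in Thio+IL-4C, -1.20, -1.39 and -1.27 in Thio, 3.96, 4.01, 3.75 and 3.96 in IL-4C, and 5.44, 5.44 and 5.27 in PBS. No groups overlapped, and the Thio arrays were the lowest. F5 fell, at -6.67 ± 0.16 (102-fold lower, adjusted p = 3.15e-10) for Thio minus PBS, the largest change of the 33 genes in that comparison. IL-4C raised it in elicited cells, at 1.85 ± 0.15 (3.6-fold higher, adjusted p = 1.78e-06) for Thio+IL-4C minus Thio, and lowered it in resident cells, at -1.46 ± 0.15 (2.76-fold lower, adjusted p = 1.41e-05) for IL-4C minus PBS, with a difference of effects of 3.31 ± 0.21 (adjusted p = 1.05e-06). Thio+IL-4C minus IL-4C was -3.36 ± 0.14 (10.2-fold lower, adjusted p = 7.61e-09).

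Tissue factor, encoded by F3, starts coagulation on cell surfaces. F3 had levels of -3.12, -2.48, -2.94 and -1.78 in Thio+IL-4C, -1.31, -1.75 and -1.79 in Thio, -3.91, -4.30, -4.03 and -4.27 in IL-4C, and -2.12, -1.84 and -1.77 in PBS. The IL-4C arrays lay below all others, and the Thio+IL-4C arrays reached into the range of the Thio arrays. F3 fell, at -2.22 ± 0.27 (4.65-fold lower, adjusted p = 5.98e-05) for IL-4C minus PBS and at -0.96 ± 0.27 (1.95-fold lower, adjusted p = 0.0151) for Thio+IL-4C minus Thio, and this second value did not pass without Thio 1 (-0.81, adjusted p = 0.054). Without IL-4C, Thio minus PBS was 0.29 ± 0.29 (adjusted p = 0.421). The other probe of F3 gave 1.30 for Thio minus PBS and 3.54 for Thio+IL-4C minus IL-4C. It was well above background on every Thio+IL-4C and Thio array and on no IL-4C or PBS array. The difference of effects was 1.25 ± 0.39 (adjusted p = 0.0277), which did not pass with quantile normalization (0.87, adjusted p = 0.143), in the authors' deposited table (0.72, adjusted p = 0.0885) or in 7 of the 14 fits without 1 array. Thio+IL-4C minus IL-4C was 1.55 ± 0.25 (2.92-fold higher, adjusted p = 0.000261), or 0.90 in the authors' deposited table and 2.55 as the mean of the probes of F3.

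F7, the partner of tissue factor, had levels of 4.25, 3.97, 4.20 and 3.65 in Thio+IL-4C, 4.76, 4.23 and 4.18 in Thio, 2.37, 2.62, 2.54 and 2.89 in IL-4C, and 2.57, 2.34 and 2.16 in PBS. All elicited arrays lay above all resident arrays. F7 rose, at 2.03 ± 0.21 (4.09-fold higher, adjusted p = 1.24e-05) for Thio minus PBS and at 1.41 ± 0.18 (2.66-fold higher, adjusted p = 4.42e-05) for Thio+IL-4C minus IL-4C, against -0.37 ± 0.20 (adjusted p = 0.15) for Thio+IL-4C minus Thio and 0.25 ± 0.20 (adjusted p = 0.41) for IL-4C minus PBS. F10, the protease that makes thrombin, had levels of 5.24, 5.60, 5.60 and 5.41 in Thio+IL-4C, 4.61, 3.95 and 3.86 in Thio, 6.25, 6.43, 6.41 and 6.60 in IL-4C, and 5.85, 5.73 and 5.62 in PBS by its brightest probe. Thio arrays were the lowest and IL-4C arrays the highest, with no overlap between groups. That probe was higher with IL-4C, at 1.32 ± 0.18 (2.5-fold higher, adjusted p = 8.34e-05) for Thio+IL-4C minus Thio and 0.69 ± 0.18 (1.61-fold higher, adjusted p = 0.00934) for IL-4C minus PBS, and lower, at -1.59 ± 0.19 (3.01-fold lower, adjusted p = 3.83e-05) for Thio minus PBS. The other F10 probe, of another transcript accession, gave -1.12, -1.60 and -0.02 for the same comparisons, so the direction with IL-4C depends on the probe. Averaged over both probes the values were 0.10 (adjusted p = 0.612), -0.45 (adjusted p = 0.0413) and -0.81. For Thio+IL-4C minus IL-4C the brightest probe gave -0.96 and the other 0.45. With slide as a block the brightest probe gave -0.25 and was not called.

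Of the 5 anticoagulant genes, 3 fell and none rose in Thio+IL-4C versus Thio, and 1 fell and none rose in IL-4C versus PBS. Procr encodes the receptor that presents protein C to thrombomodulin, and its levels were -2.89, -2.27, -2.43 and -1.43 in Thio+IL-4C, 0.74, 0.67 and 0.34 in Thio, -4.46, -5.14, -4.02 and -4.08 in IL-4C, and -3.98, -3.83 and -3.65 in PBS. Thio arrays stood alone at the top, Thio+IL-4C arrays lay between, and the IL-4C arrays lay just below the PBS arrays at the bottom. Procr rose, at 4.40 ± 0.35 (21.2-fold higher, adjusted p = 1.63e-06) for Thio minus PBS, the largest rise of the 33 genes in that comparison. It fell, at -2.84 ± 0.33 (7.16-fold lower, adjusted p = 2.96e-05) for Thio+IL-4C minus Thio, against -0.60 ± 0.33 (adjusted p = 0.211) for IL-4C minus PBS, with a difference of effects of -2.24 ± 0.47 (adjusted p = 0.00315).

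Thbd encodes thrombomodulin, the surface receptor that turns thrombin towards protein C. Its levels were 0.33, -0.07, 0.03 and -0.19 in Thio+IL-4C, 2.26, 1.86 and 2.33 in Thio, 2.59, 2.58, 2.25 and 2.57 in IL-4C, and 2.74, 2.996 and 3.07 in PBS. The Thio+IL-4C arrays lay below every other array, by more than 1 log2 unit. Thbd fell, at -2.13 ± 0.16 (4.37-fold lower, adjusted p = 9.99e-07) for Thio+IL-4C minus Thio, against -0.44 ± 0.16 (adjusted p = 0.058) for IL-4C minus PBS, and the difference of effects was -1.69 ± 0.23 (adjusted p = 0.000169). For Thio minus PBS the difference was -0.78 ± 0.17 (adjusted p = 0.00366), or -0.67 with slide as a block (adjusted p = 0.0579).

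Tfpi encodes the inhibitor of tissue factor with factor VII. One of its windows is printed above, with a STAT6 match that lies inside the listed gene. Tfpi had levels of -0.87, -0.998, -1.22 and -0.85 in Thio+IL-4C, 0.38, 0.24 and 0.14 in Thio, 0.21, -0.01, 0.05 and 0.01 in IL-4C, and -0.29, -0.13 and -0.17 in PBS. The Thio+IL-4C arrays lay below all others, and the other groups lay close together. Tfpi fell, at -1.24 ± 0.11 (2.36-fold lower, adjusted p = 4.31e-06) for Thio+IL-4C minus Thio, against 0.26 ± 0.11 (adjusted p = 0.107) for IL-4C minus PBS, with a difference of effects of -1.50 ± 0.16 (adjusted p = 3.1e-05). Without IL-4C, Thio minus PBS was 0.45 ± 0.12 (adjusted p = 0.0111) by the brightest probe, -0.75 and 0.25 by the other 2, and -0.01 as their mean (adjusted p = 0.948). For IL-4C minus PBS those 2 probes gave -0.87 and 0.28, and for the difference of effects -0.77 and -1.37.

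Pros1, which encodes protein S, a cofactor of protein C that also bridges dying cells to phagocytes, had levels of 1.93, 1.80, 1.67 and 1.47 in Thio+IL-4C, 1.97, 1.46 and 1.73 in Thio, 3.65, 3.76, 3.47 and 3.72 in IL-4C, and 4.61, 4.77 and 4.49 in PBS. Elicited arrays lay below resident arrays, and the elicited groups overlapped. Pros1 fell, at -2.90 ± 0.16 (7.48-fold lower, adjusted p = 6.66e-08) for Thio minus PBS and at -0.97 ± 0.15 (1.96-fold lower, adjusted p = 0.000269) for IL-4C minus PBS, against -0.004 ± 0.15 (adjusted p = 0.983) for Thio+IL-4C minus Thio. The difference of effects was 0.97 ± 0.21 (adjusted p = 0.00373), which in the authors' deposited table was 0.51 (adjusted p = 0.111). Proc, the gene of protein C itself, was not called in any comparison, its differences running from -0.04 for Thio+IL-4C minus Thio to 1.71 for Thio minus PBS (adjusted p = 0.08).

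**Figure D4:**
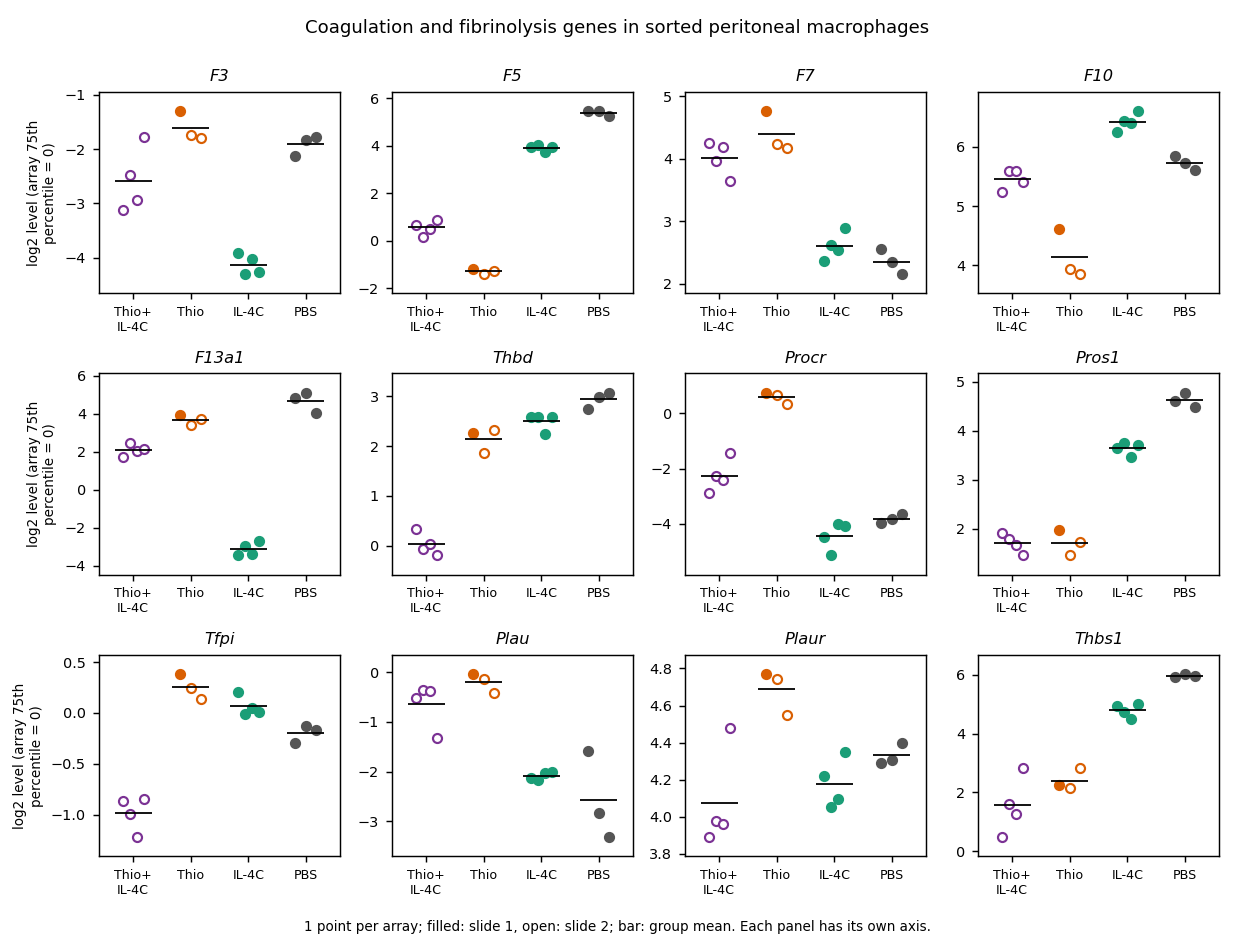
Log2 levels of 12 coagulation and fibrinolysis genes, 1 point per array, filled for slide 1 and open for slide 2, with a bar at each group mean and a separate axis per gene. F13a1 and F3 are lowest in IL-4C, F5, Pros1 and Thbs1 are lower in elicited arrays (left) than in resident arrays (right), Procr is highest in Thio, and Thbd and Tfpi are lowest in Thio+IL-4C.

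Of the plasminogen activation genes, which drive the breakdown of fibrin, none was called for IL-4C in resident cells. Plau, the urokinase gene, had levels of -0.52, -0.36, -0.38 and -1.33 in Thio+IL-4C, -0.04, -0.13 and -0.42 in Thio, -2.12, -2.18, -2.04 and -2.01 in IL-4C, and -1.59, -2.83 and -3.31 in PBS. All elicited arrays lay above all resident arrays. Plau rose, at 2.38 ± 0.37 (5.19-fold higher, adjusted p = 0.000369) for Thio minus PBS, against -0.45 ± 0.35 (adjusted p = 0.315) for Thio+IL-4C minus Thio and 0.49 ± 0.35 (adjusted p = 0.359) for IL-4C minus PBS. Thio+IL-4C minus IL-4C was 1.44 ± 0.32 (adjusted p = 0.00201), or 1.67 with slide as a block (adjusted p = 0.0909). Plaur, the urokinase receptor gene, was lower in all 4 Thio+IL-4C arrays, at 3.89 to 4.48, than in the 3 Thio arrays, at 4.55 to 4.77, a difference of -0.61 ± 0.14 (adjusted p = 0.00473), against -0.15 ± 0.14 (adjusted p = 0.507) for IL-4C minus PBS. Plat, the gene of tissue plasminogen activator, was well above background on 8 of the 14 arrays and was not called in any comparison.

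Thbs1 encodes thrombospondin 1, a matricellular protein of platelets and macrophages. Its levels were 0.49, 1.62, 1.27 and 2.85 in Thio+IL-4C, 2.24, 2.14 and 2.82 in Thio, 4.95, 4.74, 4.49 and 4.997 in IL-4C, and 5.92, 6.02 and 5.96 in PBS. Elicited arrays lay below all resident arrays, and the IL-4C arrays below the PBS arrays. Thbs1 fell, at -3.57 ± 0.45 (11.8-fold lower, adjusted p = 6.14e-05) for Thio minus PBS and at -3.24 ± 0.39 (9.43-fold lower, adjusted p = 2.57e-05) for Thio+IL-4C minus IL-4C. With IL-4C its difference was -0.84 ± 0.42 (adjusted p = 0.131) for Thio+IL-4C minus Thio and -1.17 ± 0.42 (adjusted p = 0.0508) for IL-4C minus PBS, neither of which passed the test.

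The rest of both systems was followed in 65 further genes. For IL-4C, 7 rose and 16 fell in Thio+IL-4C versus Thio, 35.4% of them against 39.5% of all genes, and 6 rose and 12 fell in IL-4C versus PBS, 27.7% against 32.3%. For thioglycollate, 17 rose and 14 fell in Thio versus PBS, 47.7% against 44.5%, and 21 rose and 23 fell in Thio+IL-4C versus IL-4C, 67.7% against 70%. These shares were near those of all genes. Among the 30 complement genes, Colec12, a scavenger receptor with a collectin domain, fell, at -4.42 ± 0.19 (adjusted p = 1.43e-08) for Thio+IL-4C minus Thio and at -2.58 ± 0.19 (adjusted p = 9.9e-07) for IL-4C minus PBS. C1qbp, whose product binds the globular heads of C1q, rose, at 1.05 ± 0.14 (adjusted p = 9.99e-05) and at 1.08 ± 0.14 (adjusted p = 9.46e-05) in the same comparisons. Cd93 fell, at -4.11 ± 0.17 (adjusted p = 1.37e-08) for Thio+IL-4C minus Thio, with a difference of IL-4C effects of -2.92 ± 0.25 (adjusted p = 5.81e-06).

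With thioglycollate, 7 of the 30 complement genes rose and 7 fell in Thio versus PBS, and 12 rose and 10 fell in Thio+IL-4C versus IL-4C. Vsig4, a receptor for C3b on resident macrophages, was lower, at -5.05 ± 0.33 (adjusted p = 3.19e-07) for Thio minus PBS and at -6.32 ± 0.29 (adjusted p = 1.48e-08) for Thio+IL-4C minus IL-4C. Fcna, the gene of ficolin A, was lower, at -4.20 ± 0.17 (adjusted p = 8.64e-09) and -6.15 ± 0.15 (adjusted p = 1.66e-10) in the same comparisons, with a difference of IL-4C effects of -1.95 ± 0.23 (adjusted p = 6.9e-05). Itgax, which encodes CD11c, a chain of a complement receptor, was higher, at 6.59 ± 0.23 (adjusted p = 1.98e-09) for Thio minus PBS, at 0.89 ± 0.21 (adjusted p = 0.0054) for Thio+IL-4C minus Thio and at 8.71 ± 0.20 (adjusted p = 1.44e-10) for Thio+IL-4C minus IL-4C, with a difference of IL-4C effects of 2.12 ± 0.30 (adjusted p = 0.000237). Clu, which encodes clusterin, an inhibitor of the terminal pore, was higher, at 3.78 ± 0.38 (adjusted p = 1.13e-05) for Thio minus PBS. Cfi, the factor I gene, had only a bound in IL-4C, no IL-4C array reading it well above background, and Thio+IL-4C was higher, at least 24.0-fold (adjusted p = 0.00157). With slide as a block its fitted difference was 0.27.

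Among the 35 coagulation and fibrinolysis genes, Serpinb2, an inhibitor of plasminogen activators, had the largest fall with thioglycollate, at -8.37 ± 0.66 (adjusted p = 1.35e-06) for Thio minus PBS and -6.89 ± 0.57 (adjusted p = 1.37e-06) for Thio+IL-4C minus IL-4C. It rose, at 2.58 ± 0.61 (adjusted p = 0.00549) for Thio+IL-4C minus Thio. Vwf, the gene of von Willebrand factor, was higher, at 5.76 ± 0.29 (adjusted p = 4.17e-08) for Thio minus PBS, and F12, the gene of factor XII, which had only a bound in PBS because no PBS array read it well above background, was higher in Thio, at least 7.85-fold (adjusted p = 1.61e-05). Gas6, a ligand that links dying cells to phagocytes, fell, at -4.09 ± 0.30 (adjusted p = 8.36e-07) for Thio+IL-4C minus Thio and at -1.69 ± 0.30 (adjusted p = 0.00095) for IL-4C minus PBS, with a difference of effects of -2.40 ± 0.43 (adjusted p = 0.00113). F9, the gene of factor IX, fell, at -1.66 ± 0.27 (adjusted p = 0.000392) for Thio+IL-4C minus Thio, with a difference of effects of -2.04 ± 0.38 (adjusted p = 0.00154). In resident cells Anxa5, an annexin that covers exposed phosphatidylserine, fell, at -2.72 ± 0.19 (adjusted p = 6.14e-07), while Anxa2, a receptor for plasminogen, rose, at 1.34 ± 0.16 (adjusted p = 5.26e-05) and F13b was higher, at 1.15 ± 0.16 (adjusted p = 0.00012) for IL-4C minus PBS.

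Some calls among these 35 genes did not pass with slide as a block. F2rl1, a protease-activated receptor gene, was at -2.22 ± 0.58 (adjusted p = 0.00953) for Thio minus PBS and at -0.63 with slide as a block (adjusted p = 0.395). For Thio+IL-4C minus IL-4C, Tfpi2 was at -2.71 ± 0.44 (adjusted p = 0.000234) and with slide as a block at -0.56 (adjusted p = 0.461), and Klkb1, the prekallikrein gene, was at 4.05 ± 0.59 (adjusted p = 0.000116) and with slide as a block at 1.04 (adjusted p = 0.248). Serpind1, a thrombin inhibitor gene with only a bound in IL-4C for the same reason, was higher in Thio+IL-4C, at least 3.95-fold (adjusted p = 6.72e-05), and its fitted difference with slide as a block was 0.98. Cpb2, which encodes an inhibitor of fibrin breakdown, had a difference of IL-4C effects of 1.79 ± 0.51 (adjusted p = 0.0191).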

How the data were processed

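RNA of 14 samples was hybridised in 1 colour (Cy3) to Agilent arrays. The scanner tables that the authors deposited, 1 for each array, hold spot intensities on a linear scale, per the file headers extracted with Agilent Feature Extraction 11.0.1.1, background-subtracted and detrended. They also deposited a table of processed values, taken here as log2, made per the submitters' processing notes with Feature Extraction 11.5 and limma. Its median is 9.23 on every array, and its correlation with log2 median signals, array by array, was 0.989 to 0.995. Its background correction and log base are not given in the sources used here.

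Of 62976 spots on an array, control spots (3671) and spots with an outlier mark (113 to 165 per array) were left out, and none was saturated. Probes were named through their accession in a RefSeq gene table (GRCm38.p6), giving 27235 probes 1 symbol and leaving 28446 unnamed. Log2 processed signal minus the array's 75th percentile was used. Probes well above background on at least 3 arrays were kept, the brightest standing for its gene. All 33 members passed, 29 of them well above background on all 14 arrays, and 9 had several probes. Number of arrays limits the precision.

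Groups came from the treatment label. Differences were fitted with limma 3.58.1 in R 4.3.3 over all arrays with 1 mean per group, two-sided, with Benjamini-Hochberg adjustment over all genes, and the fit was tested on simulated data. For a gene not well above background on any array of a group, a fold is written as at least, taken against the higher of the lowest well-above-background signal and the probe's own signal. The members, the lists of further pathway genes and of markers, and the tests were chosen with earlier results of these data known. Members were named by role, with values on every array for those called, and further pathway genes as up to 2 rises and 2 falls per list and comparison, some of which are not reported here. Alternatives were normexp background correction, run on the median signal, quantile normalization, the authors' deposited log2 table, other filters on dim probes, the mean of a gene's probes, slide as a fixed or random block, the replicate number as a block, and leaving out each array. Same-numbered arrays correlated at r of -0.445 to 0.367 in their deviations from group means, over 0.1 in 4 of 19 pairs, so the numbers were not taken to pair the samples.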

Additional observations from a re-analysis of the deposited data

Results flagged for a closer look

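The IL-4C effect differed between elicited and resident macrophages, by the limma test of the difference itself, for 15 of the 33 genes. A positive difference means a higher value of Thio+IL-4C minus Thio than of IL-4C minus PBS. Among complement genes it was 1.79 for Cfp, 1.68 for C5ar1, 1.60 for C3, 1.19 for C4b, 1.17 for Cfb, -0.73 for C1ra, -1.22 for C3ar1 and -1.62 for Cd59a. Among coagulation genes it was 6.17 for F13a1, 3.31 for F5, 1.25 for F3, 0.97 for Pros1, -1.50 for Tfpi, -1.69 for Thbd and -2.24 for Procr.

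A single array was marked as apart from the other 3 of its group in 8 of the 65 groups of 4 arrays examined. Chance alone marks about 1 in 20. The mark takes the gap to the nearest array as a share of the range of all 4 arrays. It can therefore fall on an array a small distance from close partners. For C4b the marked array stood at 6.49 and the other IL-4C arrays at 6.72 to 6.75. In Thio+IL-4C the marked arrays were array 1 for C1qc (4.28), array 2 for Cd59a (-3.56) and array 4 for Plau (-1.33) and Plaur (4.48). In IL-4C they were array 3 for C4b (6.49) and Thbd (2.25) and array 1 for Hc (-1.85) and Plat (-8.59).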

How the results depend on the processing

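Of the 100 pairs of a member and a comparison in which it was called, 75 were called in the same direction under every alternative that kept all arrays, and 90 in every fit without 1 array. Counts of members called, both directions together, never moved by over 1.5 times. By direction, the higher calls in Thio+IL-4C versus IL-4C were 10, and 5 with slide as a fixed or random block, those in IL-4C versus PBS were 2, and 1 as means of probes, and the lower calls for the difference of effects were 6, and 10 in the authors' deposited table. Sizes of called members that moved by over 1.5 times, beside those given with the results, were in that table C3ar1 (-0.57) and F10 (1.104) in IL-4C versus PBS, C1s1 (1.52), Cfp (-0.97), C6 (0.91), Cd55 (-1.97) and Procr (1.30) in Thio+IL-4C versus IL-4C, and C4b (0.66) and Cfb (0.78) for the difference of effects, and elsewhere C6 in Thio versus PBS (1.198) and Cd55 in Thio+IL-4C versus IL-4C (-2.06) with normexp and Cd59a in the last comparison (-0.90) under quantile normalization. Over all genes, Thio versus PBS gave 9062 calls, 6039 with slide as a fixed block, 5866 with slide as a random block and 6251 to 13890 without 1 array, the highest without Thio 1. Thio+IL-4C versus IL-4C gave 14249, 5459 and 5610. These blocks also ended the Thio+IL-4C versus IL-4C calls of C1s1, C2, Cfp, C6, Hc, Serping1, Cd59a, F10 and Plau; treatment and slide are nearly the same there. Directions reversed for Cr1l in IL-4C versus PBS in the authors' deposited table (0.0024), for F10 in IL-4C versus PBS (-0.45) and Tfpi in Thio versus PBS (-0.0133) as means of their probes, and for Serping1 in Thio+IL-4C versus IL-4C as a mean of its probes (-0.27) and with slide as a fixed block (-0.33). Calls lost without 1 array were, beside those given with the results, C1ra (difference of IL-4C effects) without PBS 1, PBS 2, any IL-4C array, Thio 3, Thio+IL-4C 2 or Thio+IL-4C 4, F3 (likewise) without PBS 2, PBS 3, IL-4C 2, IL-4C 4, Thio 2, Thio 3 or Thio+IL-4C 2, and, in Thio+IL-4C versus IL-4C, Cfd without PBS 2, any IL-4C array or Thio+IL-4C 1, 2 or 3, Hc without IL-4C 2, 3 or 4 or any Thio+IL-4C array, and Serping1 without IL-4C 1, 2 or 4 or Thio+IL-4C 1, 2 or 4. The median of all genes moved by over 0.1 under 5 settings, most for Thio+IL-4C versus IL-4C, by 0.24 with slide as a fixed block and by -0.23 in the authors' deposited table. With the replicate number as a block, 16 members were called in IL-4C versus PBS, 18 in Thio+IL-4C versus Thio, 24 in Thio versus PBS, 26 in Thio+IL-4C versus IL-4C and 17 for the difference of effects. The block ended 5 calls, of Cr1l in IL-4C versus PBS, C1qb in Thio+IL-4C versus Thio (-0.37) and Cfd, Hc and Serping1 in Thio+IL-4C versus IL-4C. The cause of these changes was not tested. Cfd, Cd55 and Plat were near background on some arrays, which limits their differences.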
